A study of Mus musculus with 5375 samples.

Results

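The 10 genes described here carry the decision to leave the first gap phase of the cell cycle (G1): the D-type cyclins Ccnd1, Ccnd2 and Ccnd3, their kinase partners Cdk4 and Cdk6, the Cdk inhibitors Cdkn1b, Cdkn1c and Cdkn2c, and the pocket proteins Rb1 and Rbl2. They were taken by name from the 35351 genes in the read count tables, and all 10 were found. Single tumor cells (TCs) and single lung endothelial cells (ECs) from a mouse model of lung metastasis had been sorted into plates and sequenced with a modified Smart-seq2 protocol, which counts reads without molecular identifiers. The TCs were 4T1-GFP cells, a GFP-tagged mouse mammary carcinoma line, stained with the dilutable dye CellTrace and given through the tail vein to wild-type female BALB/c mice.

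Of the 5 TC groups, the first was grown in culture and never injected. At day 1.5, TCs of the same 4 mice (m5 to m8) were divided by an injected antibody to H-2Kd into intravascular cells, which the antibody had reached, and extravascular cells, which it had not. At day 3.5, TCs were divided by CellTrace into latent cells (m9 to m12), which retained the dye, and proliferative cells, which had diluted it. ECs came from uninjected mice (day 0, m1 to m4) and from injected mice at day 1.5 (m5 to m7) and day 3.5 (m9 to m11). The cultured cells and the proliferative cells were each a single pool, so neither has a spread of its own. The deposited annotation gives the proliferative pool to mouse m12, which is also a latent animal, whereas the labels count 4 replicates, and all TCs descend from 1 transplanted cell line. Each TC gate was also sequenced on its own lane, so gate and lane cannot be told apart.

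Cells of 1 animal and gate were summed to 1 library, and a level is given in CPM, the gene's reads in every 1000000 reads of its library, or in CPM per kilobase of exon where genes are compared with each other. Lung TC libraries of single animals held 31890283 to 49892323 reads, the proliferative pool 163484509, the culture pool 92099304 and EC libraries 75579608 to 129503735. The 6 endothelial markers summed to 8611 to 14762 CPM in ECs and 19.7 to 50.7 CPM in TCs, and the 6 epithelial markers to 2734 to 6296 CPM in TCs and 1.93 to 17.5 CPM in ECs. The 7 immune markers summed to 225 CPM in latent mouse m9 and 131 CPM in latent mouse m12, to 45.2 CPM in day 0 mouse m3, and to 9.14 CPM or less in the other libraries. In summed libraries, fewer cells with a transcript and less of it per cell cannot be told apart, so shares of cells are given beside the levels.

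In the textbook account, mitogens induce D cyclins, which activate Cdk4 and Cdk6 to phosphorylate Rb1 and its relatives. Phosphorylation frees E2F transcription factors to switch on the genes of DNA replication. Inhibitors of the INK4 family (Cdkn2c among them) bind Cdk4 and Cdk6, and those of the Cip/Kip family (Cdkn1b, Cdkn1c) bind cyclin and kinase together, whereas Rbl2 is the pocket protein most associated with resting cells.

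Between the cell types, Ccnd1 and Cdk4 were higher in each TC library than in each EC library, and Cdkn1b, Cdkn1c and Rb1 were lower. Of 13057 genes at 1 CPM or more in at least 10 libraries, 29.7% showed no overlap between the 14 TC and 10 EC libraries (10.7% higher and 18.9% lower in TCs), so 4 of the 9 members in that set, with Cdkn1c outside it, were not far from the background. Shares of cells with a read separated the TC from the EC libraries for 8 of the 9 members found in 5% of cells or more (all but Rb1), as for 68.6% of the 14173 such genes, with medians of 5721 to 7145 genes per cell in TC libraries and 1951 to 2973.5 in EC libraries. TC and EC cDNA was amplified and sequenced separately, and no test was run between them.

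**Figure D1:**
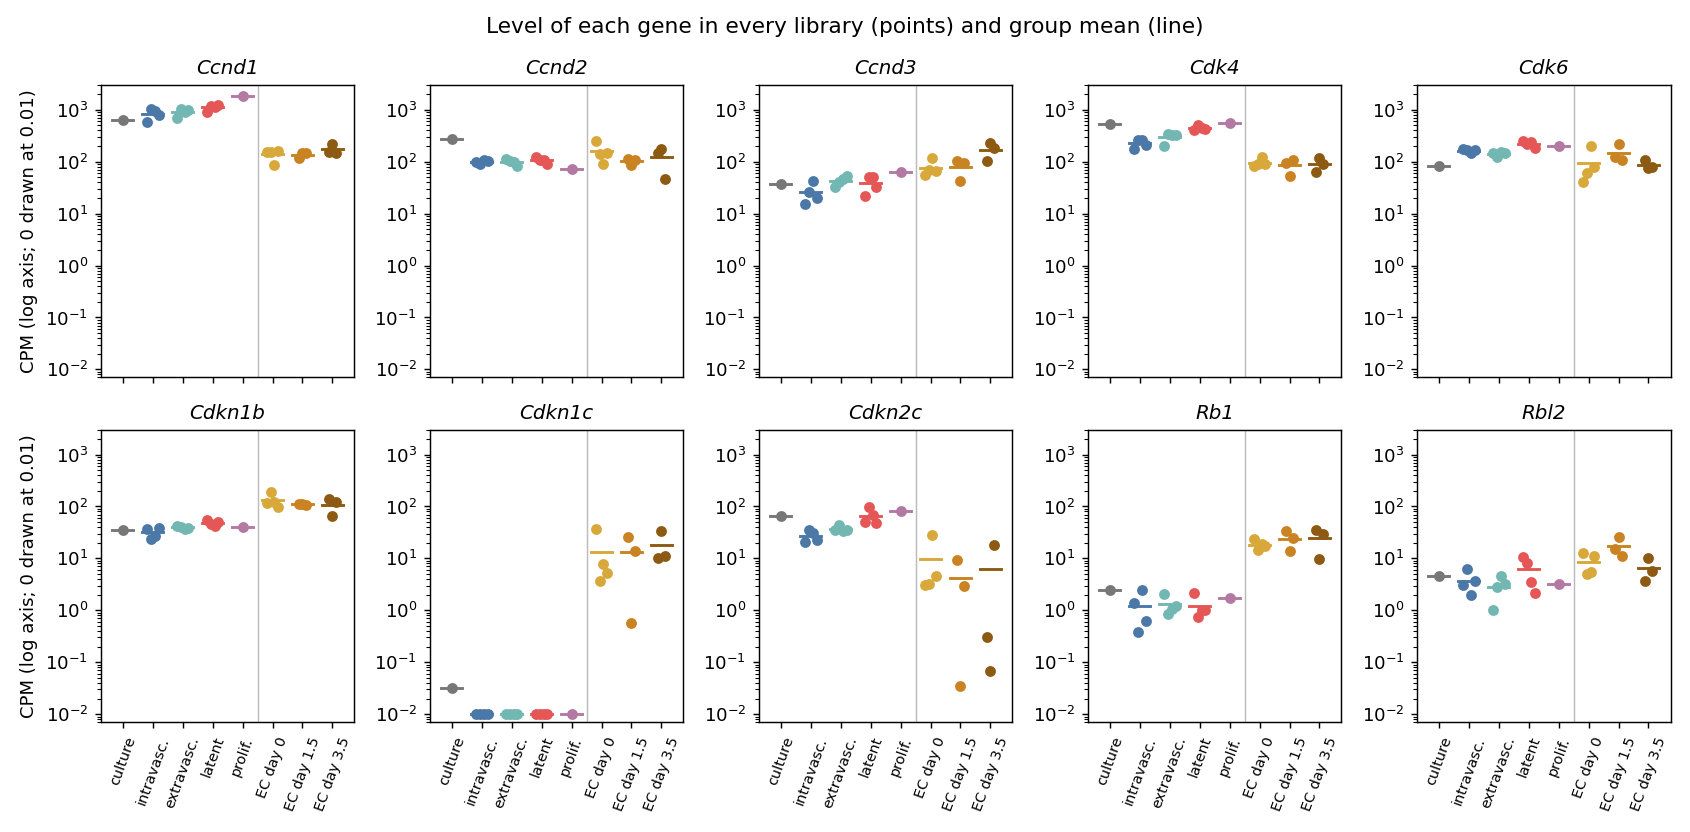
Level of each of the 10 genes in each library, in CPM on a log axis (points, 1 per animal or pool), with the group mean as a line and values of 0 drawn at 0.01. Ccnd1 and Cdk4 sit higher in each TC library than in each EC library, Cdkn1b and Rb1 lower, and Cdkn1c is at 0 in all lung TC libraries.

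Among the D cyclins, Ccnd1 (chromosome 7, 144929931 to 144939925, minus strand, GRCm38) was the leading transcript in all 8 groups. It reached 647 CPM in culture, 581, 1019.7, 954 and 804 CPM in the intravascular libraries, 693, 1032, 917 and 1007 CPM in the extravascular ones, 904, 1174, 1139 and 1224 CPM in the latent ones (each from the lowest mouse number up), and 1798 CPM in the proliferative pool. The order of the group means was therefore culture, intravascular, extravascular, latent, proliferative, and within it the 3 groups with replicates overlapped one another. In ECs it was 152, 154, 86.0 and 159 CPM at day 0, 120.2, 144 and 147 CPM at day 1.5, and 151, 222 and 149 CPM at day 3.5. The median TC library held 6.55 times the level of the median EC library, and Ccnd1 was read in 95.3 to 100% of the cells of a lung TC library against 20.3 to 46.01% of ECs.

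Ccnd2 (chromosome 6, 127125162 to 127152193, minus strand), the paralog best known from lymphoid and gonadal cells, was highest in culture at 274 CPM. In the lung TC libraries it was 96.4, 91.5, 106 and 103 CPM (intravascular), 114, 105, 98.9 and 84.0 CPM (extravascular), 121, 106, 109 and 91.4 CPM (latent) and 72.8 CPM (proliferative). The 3 replicated TC groups overlapped fully, and the proliferative pool lay below all their libraries. EC libraries covered 46.6 to 255 CPM, a range that held all lung TC libraries.

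Ccnd3 (chromosome 17, 47505051 to 47599691, plus strand), the most broadly expressed D cyclin, had a lower median in TCs than in ECs. Its level was 37.5 CPM in culture, 15.3, 26.1, 42.9 and 19.98 CPM intravascular, 33.2, 40.5, 47.0 and 52.6 CPM extravascular, 21.4, 51.2, 50.4 and 33.1 CPM latent, and 63.0 CPM in the proliferative pool. In ECs it was 56.2, 68.1, 117 and 65.8 CPM at day 0, 103, 42.2 and 94.4 CPM at day 1.5, and 105, 224 and 185 CPM at day 3.5. The TC and EC ranges overlapped, and the ratio of the TC median to the EC median was 0.395.

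Per kilobase, Ccnd1 made up 80.4% of the D-cyclin transcripts in culture, 92.8% ± 1.36 (SD, n = 4) in intravascular, 92.4% ± 1.47 (n = 4) in extravascular and 93.6% ± 1.03 (n = 4) in latent TCs, and 96.2% in the proliferative pool. The cultured cells differed from the lung TCs mainly in Ccnd2, which held 17.1% of their D cyclins and 5.73% ± 1.41 of those of intravascular TCs. ECs carried a mixed set: Ccnd1 held 53.1% ± 7.51 (n = 4), 59.6% ± 8.62 (n = 3) and 53.4% ± 1.61 (n = 3) at days 0, 1.5 and 3.5, and Ccnd3 held 17.4% ± 10.2, 18.3% ± 6.68 and 28.2% ± 8.28. With the length of the longest transcript in place of all exons, Ccnd1 still led in all 8 groups, at 42.4% against 40.2% for Ccnd3 in ECs of day 3.5.

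**Figure D2:**
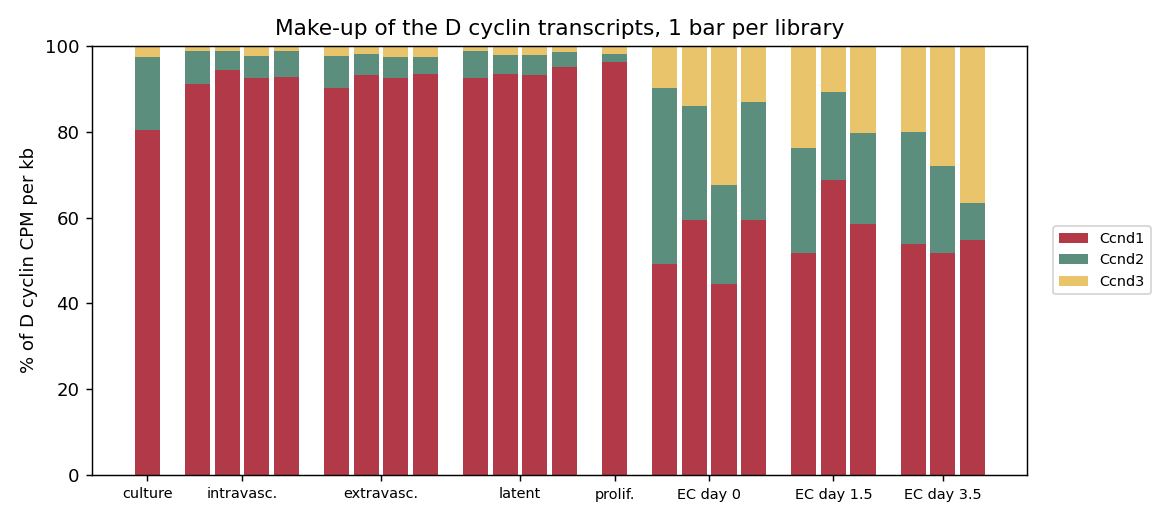
Make-up of the D-cyclin transcripts in each library (1 bar per animal or pool), as the percentage of the summed CPM per kilobase of Ccnd1, Ccnd2 and Ccnd3. Ccnd1 takes 80.4% of the bar in culture and over 90% in lung TCs, against 44.4 to 68.7% in EC libraries.

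Of the kinases that D cyclins activate, Cdk4 (chromosome 10, 127063534 to 127067920, plus strand) was higher per kilobase than Cdk6 (chromosome 5, 3341485 to 3531008, plus strand) in each group mean. Cdk4 was at 538 CPM in culture, at 172, 266, 266 and 212 CPM in intravascular, 201, 345, 332 and 331 CPM in extravascular and 412, 512, 439.6 and 432 CPM in latent TCs, and at 545 CPM in the proliferative pool. Cultured and proliferative cells thus lay above all other TC libraries, and the 4 latent libraries above the 8 of day 1.5. In ECs Cdk4 stayed between 53.6 and 121 CPM over all 10 libraries.

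Cdk6 was lowest among TCs in culture, at 83.7 CPM. It was at 172, 171, 144 and 164 CPM in intravascular, 144, 125, 156 and 145 CPM in extravascular and 248, 216, 236 and 186 CPM in latent TCs, and at 199 CPM in the proliferative pool. The latent libraries did not overlap the day 1.5 libraries, and the proliferative pool fell inside the latent range. EC libraries ranged from 40.6 to 221 CPM. Cdk4 made up 96.5% of the Cdk4 and Cdk6 transcripts per kilobase in culture, 85.4% ± 3.32 in intravascular, 89.7% ± 2.82 in extravascular and 89.7% ± 1.63 in latent TCs (n = 4 each), and 92.2% in the proliferative pool.

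Promoter sequences from RefSeq (GRCm38.p6), the 250 bases before a start site, were matched for 6 of the 10 genes. They were searched on both strands for the E-box CACGTG, which Myc and related factors bind, for the GC box GGGCGG, and for the E2F-type sites TTTCCCGC and TTTGGCGC. The promoters of the kinase pair and of Cdkn2c are shown, with CACGTG in capitals, because these members had the 3 smallest p-values between latent and extravascular TCs (given further on).
Cdk4, chr10:127063285-127063534, plus strand: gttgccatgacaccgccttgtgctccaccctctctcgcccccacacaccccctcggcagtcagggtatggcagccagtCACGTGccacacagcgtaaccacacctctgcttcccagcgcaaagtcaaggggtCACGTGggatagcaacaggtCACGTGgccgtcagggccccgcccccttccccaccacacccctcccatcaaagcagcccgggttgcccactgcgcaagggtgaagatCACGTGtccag
Cdk6, chr5:3343643-3343892, plus strand: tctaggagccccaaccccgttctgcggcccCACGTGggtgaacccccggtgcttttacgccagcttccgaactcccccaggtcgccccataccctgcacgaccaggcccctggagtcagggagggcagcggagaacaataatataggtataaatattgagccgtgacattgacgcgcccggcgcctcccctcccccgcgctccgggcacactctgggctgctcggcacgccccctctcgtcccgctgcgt
Cdkn2c, chr4:109666757-109667006, minus strand: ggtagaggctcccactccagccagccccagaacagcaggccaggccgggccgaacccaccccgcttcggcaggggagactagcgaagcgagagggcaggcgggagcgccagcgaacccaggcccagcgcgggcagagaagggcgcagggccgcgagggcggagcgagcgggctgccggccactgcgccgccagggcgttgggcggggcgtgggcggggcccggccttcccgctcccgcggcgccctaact

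The Cdk4 promoter held CACGTG 4 times, beginning 172, 118, 98 and 11 bases before the start site. Of 32851 promoters of this length, 6.02% held the motif at least once and 0.0213% (7 promoters) held it 4 times or more. The Cdk6 window held it once, 220 bases before a RefSeq start. The Cdk6 and Cdkn2c windows lie inside the genes as the GENCODE annotation draws them. The table holds a pair of Cdkn2c start sites. The window of the upstream one, shown here, held no CACGTG and 3 GC boxes, and 8.47% of promoters held 3 or more of these, whereas the other (chr4:109665373-109665622) held neither motif. Neither E2F-type site, held by 0.895% and 0.417% of promoters, was found in the windows of the 6 genes.

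Of the inhibitors, Cdkn1b (p27; chromosome 6, 134920401 to 134925513, plus strand), which blocks cyclin E with Cdk2, was lower in TCs. It was at 34.95 CPM in culture, at 36.8, 24.1, 26.8 and 38.6 CPM in intravascular, 42.5, 39.7, 37.4 and 38.6 CPM in extravascular and 54.8, 45.4, 42.6 and 51.1 CPM in latent TCs, and at 40.7 CPM in the proliferative pool. EC libraries held 119, 194, 121 and 96.5 CPM at day 0, 113, 112 and 105 CPM at day 1.5, and 136, 66.3 and 122 CPM at day 3.5. The lowest EC library was above the highest TC library, whereas the share of cells with a read went the other way, at 56.5 to 77.6% of TCs and 18.4 to 34.5% of ECs.

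Cdkn1c (p57; chromosome 7, 143458339 to 143461050, minus strand), an imprinted inhibitor of growth, was read in ECs alone apart from 3 reads in 1 cultured cell. That cell was 1 of 369, or 0.271% (exact binomial 95% interval 0.00686 to 1.50%). In the lung it was found in 0 of 325 intravascular, 0 of 306 extravascular, 0 of 329 latent and 0 of 237 proliferative TCs, which allows shares of up to 0.923%, 0.980%, 0.912% and 1.27%. In ECs it was found in 2.25 to 6.57% of the cells of a library, at 37.5, 3.61, 7.86 and 5.31 CPM on day 0, 26.0, 0.573 and 14.0 CPM on day 1.5, and 10.1, 34.3 and 11.1 CPM on day 3.5. These EC levels rest on few cells: the single highest cell gave 25.1 to 92.3% of the reads of its library. Intervals and limits here cover counting error only.

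Cdkn2c (p18; chromosome 4, 109660876 to 109667189, minus strand), an INK4 inhibitor of Cdk4 and Cdk6, had the opposite distribution. It was at 65.1 CPM in culture, at 20.9, 34.9, 31.0 and 23.05 CPM in intravascular, 35.4, 44.3, 33.4 and 35.4 CPM in extravascular and 50.3, 97.5, 69.0 and 48.2 CPM in latent TCs, and at 80.5 CPM in the proliferative pool. The latent, cultured and proliferative libraries were all above those of day 1.5. ECs held 0.0351 to 28.5 CPM, in 0.683 to 7.27% of cells against 61.3 to 82.5% in lung libraries of single TC animals. Per kilobase and by group mean, Cdkn2c was therefore the main one of these 3 inhibitors in TCs (59.2 to 77.0% of their sum) and Cdkn1b the main one in ECs (66.9 to 77.8%). Single libraries departed from this: Cdkn1b led in intravascular m5 (50.9% against 49.1% for Cdkn2c), and Cdkn1c led in ECs of day 3.5 mouse m10 (53.5% against 46.4% for Cdkn1b).

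The pocket protein Rb1 (chromosome 14, 73183673 to 73325822, minus strand), the retinoblastoma tumor suppressor, was near the detection limit in TCs. It was at 2.42 CPM in culture, at 1.41, 0.382, 2.44 and 0.621 CPM in intravascular, 2.04, 0.853, 1.08 and 1.23 CPM in extravascular and 2.13, 0.734, 1.03 and 1.00 CPM in latent TCs, and at 1.70 CPM in the proliferative pool. EC libraries held 9.85 to 35.1 CPM, and the ratio of the TC to the EC median was 0.0552. The share of cells with any read was alike, at 8.86 to 22.4% in TC libraries and 10.4 to 23.9% in EC libraries, but a TC with reads had a median of 1.97 to 2.82 of them and an EC 6 to 9. The annotated spans of Rcbtb2 and Lpar6, introns included, overlap that of Rb1 on the opposite strand. Without strand in the protocol, reads from shared exons could not be told apart, but whether exons are shared was not examined.

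Rbl2 (p130; chromosome 8, 91070057 to 91123844, plus strand) was low in both cell types. It was at 4.64 CPM in culture, 2.01 to 6.17 CPM in intravascular, 1.005 to 4.55 CPM in extravascular and 2.13 to 10.6 CPM in latent TCs, and 3.21 CPM in the proliferative pool. ECs held 3.63 to 25.3 CPM, overlapping the TCs, with a read in 2.84 to 6.71% of cells against 9.33 to 34.1% of lung TCs. The annotated span of Aktip, introns included, overlaps that of Rbl2 by 12061 bases on the opposite strand. Aktip reached 62.5 CPM in TCs and 49.0 CPM in ECs, above Rbl2 itself. Only reads from shared exons could not be told apart, and whether exons are shared was not examined. Among the other members, the span of Tspan31 overlaps that of Cdk4 by 641 bases on the opposite strand, and Tspan31 reached 153 CPM in TCs and 146 CPM in ECs. LTO1 overlaps Ccnd1 in the same way by 1771 bases and reached 40.1 CPM in TCs and 93.9 CPM in ECs. Bysl overlaps Ccnd3 by 361 bases and reached 51.1 CPM in TCs and 46.2 CPM in ECs.

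Over the 13 lung TC libraries the pairs with the strongest Pearson r of log2 CPM were Cdk4 with Cdkn2c (0.87), Ccnd1 with Cdk4 (0.82) and Ccnd1 with Ccnd2 (−0.70). The libraries share gates and lanes, so these values describe the set and carry no p. Genes outside the list whose levels ran closest to Cdk4 were Uqcrc1, Hmces and Slc25a39 (r = 0.98, 0.98 and 0.97), those among the closest to Ccnd1 included Rpp14 and Gyg (0.91 and 0.91), and those closest to Cdkn2c were Gm5900, Tmem59 and AI467606 (0.96, 0.94 and 0.93). For Ccnd2 they included Basp1 and Miga1 (0.88 and 0.84), and for Ccnd3 they were Exosc9, Maea and Tubb5 (0.94, 0.93 and 0.90). The closest gene to Cdk6, Gm15946, was at 0 to 1.76 CPM and the closest to Cdkn1b, Vwf, at 0.153 to 1.51 CPM, and the closest to Rbl2, 4930512M02Rik, at 0.0226 to 0.784 CPM, so little can be read from these 3.

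Extravascular were compared with intravascular TCs to ask what changed on leaving the vessel. None of the 9 members tested was called (0 higher, 0 lower, edgeR's quasi-likelihood test with Benjamini-Hochberg adjustment over all genes), against 0.951% of all 19249 genes, and 1 had an unadjusted p under 0.05. DESeq2 also called 0 (6.88% of all genes) and limma-trend on the mean log values called 3 (Ccnd2, Cdk6 and Rbl2, all lower in extravascular cells; 15.1% of its 13283 genes). With the mouse as a block, 0 members and 1 of all genes were called in place of 183. The smallest p was that of Cdk6, with a log2 difference of −0.27 ± 0.10 (± SE, adjusted p = 0.202), and the one for Ccnd3 was 0.64 ± 0.33 (adjusted p = 0.327), both edgeR.

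In no member did the CPM of the 4 extravascular libraries separate from those of the 4 intravascular ones, against 8.42% of all genes. The share of cells with a read did for 1 member, Ccnd2, at 89.9 to 92.9% of intravascular and 77.5 to 85.5% of extravascular TCs. As 16.3% of the 14550 genes found in 5% of cells or more also separated, this is no more than the background. Thinned to 100000 reads per cell, the shares were 85.8% ± 1.69 and 73.7% ± 5.63 (SD, n = 4 each). The Ccnd2 level was alike in both gates, with a log2 fold change of −0.06 ± 0.12 (adjusted p = 0.856, edgeR). Median genes per cell were 6293.5 to 6608 in intravascular and 5721 to 6080.5 in extravascular libraries, and their part in the shares was not tested.

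Latent TCs of day 3.5 were compared with the extravascular TCs of day 1.5. These groups differ in day, sort gate, lane and animals, which cannot be told apart. The paper set the latent gate by the dye of nonproliferative day 1.5 TCs, so the contrast does not isolate dye retention. Cdk6 was higher, by 0.50 ± 0.10 on the log2 scale (± SE, fold 1.41, adjusted p = 0.00879, edgeR's quasi-likelihood test), and was the only one of 9 members called, against 8.57% of all genes (3.6% higher). Its adjusted p stayed between 7.7e-05 and 0.0477 over all alternatives run. DESeq2 called 2 members (14% of all genes) and limma-trend 5 (40.3%). The immune markers were raised in latent m9 and m12, as given above, and without these animals the Cdk6 difference was 0.49 (adjusted p = 0.0477, edgeR).

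The difference for Cdkn2c was 0.68 ± 0.23 on the log2 scale (adjusted p = 0.0894) and that for Cdk4 0.43 ± 0.18 (adjusted p = 0.168), both edgeR and neither called. Cdkn2c was called by DESeq2 (adjusted p = 0.0229), and by edgeR without both immune-high animals (log2 0.97, adjusted p = 0.0414). Ccnd1 differed by 0.14 ± 0.18 (adjusted p = 0.675, edgeR) and Cdkn1b by 0.16 ± 0.16 (adjusted p = 0.613, edgeR), and neither was called. Cdk4, Cdk6, Cdkn1b and Cdkn2c had no overlap between the 4 latent and 4 extravascular libraries, as did 16.7% of all genes.

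Shares of cells in the latent gate separated from the extravascular ones for Cdk6, Cdkn1b, Cdkn2c and Rbl2, each higher, against 28.8% of the genes found in 5% of cells or more. Cdkn1b was read in 71.4 to 77.5% of latent and 56.5 to 64.6% of extravascular TCs, and Cdkn2c in 73.8 to 82.5% and 61.3 to 67.1%. Detection as a whole moved the same way: the median was 6554.5 to 6869.5 genes per cell in latent and 5721 to 6080.5 in extravascular libraries, with 2 to 6 and 8 to 20 cells over 5% mitochondrial reads, and the part of either in the shares was not tested. Thinned to 100000 reads per cell, Cdkn1b was read in 62.2 to 73.5% of latent and 50.7 to 54.4% of extravascular TCs. Of the 2 proliferation markers named, Mki67 was at 98.8, 108, 113 and 92.5 CPM in latent libraries and 87.6 CPM in the proliferative pool, and Top2a at 171 to 205 and 184 CPM. Each latent library was thus above the pool for Mki67, and the pool lay inside the latent range for Top2a. The paper states that its gates enriched rare subpopulations but were not highly pure. Latent and proliferative name the dye gates here.

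**Figure D3:**
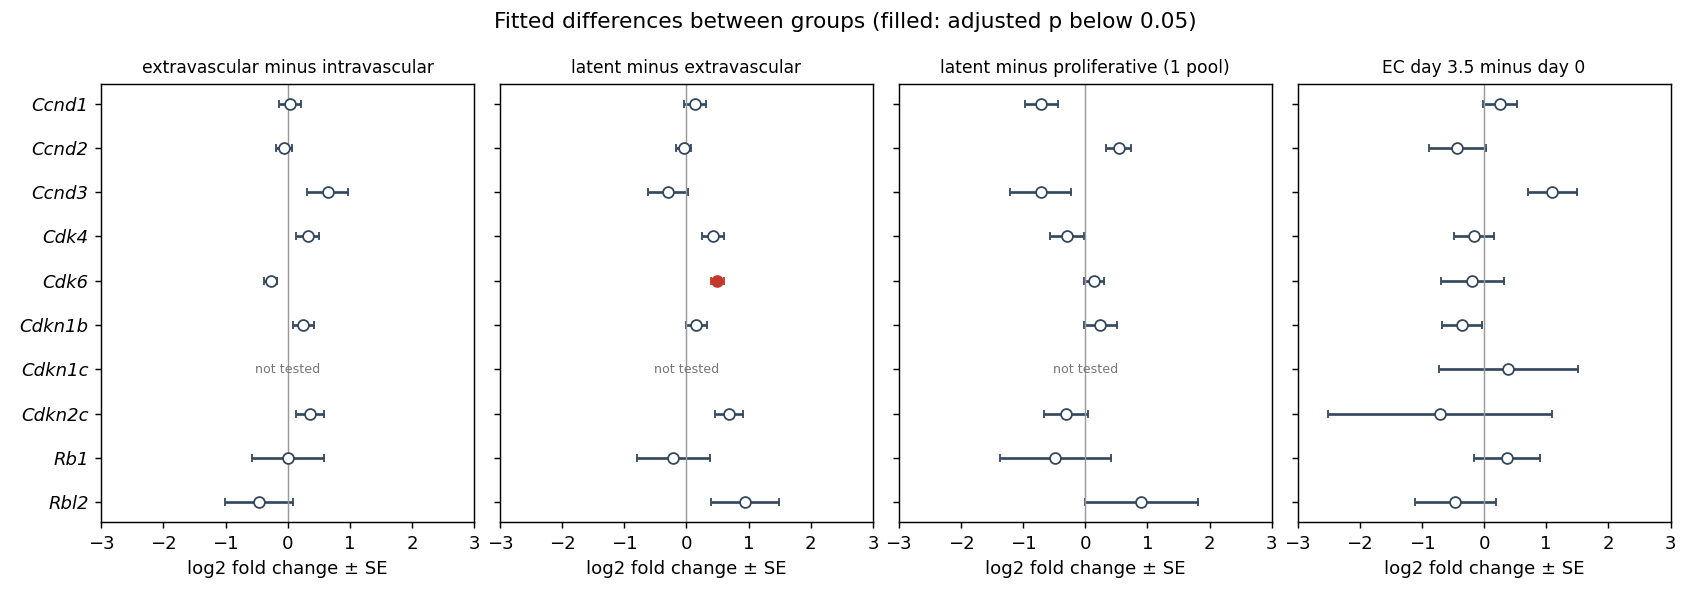
Fitted log2 fold changes ± SE of the 10 genes in 4 comparisons from edgeR's quasi-likelihood fits, filled where the adjusted p over all genes is below 0.05; Cdkn1c had too few TC reads to be tested. Cdk6 in latent against extravascular TCs (0.50 ± 0.10) is the single filled point.

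The proliferative pool stood above the extravascular libraries in Ccnd1 (log2 0.85 ± 0.26, adjusted p = 0.204), Cdk4 (0.72 ± 0.27, adjusted p = 0.320) and Cdkn2c (0.99 ± 0.34, adjusted p = 0.269), and below them in Ccnd2 (−0.59 ± 0.20, adjusted p = 0.274), all edgeR. With a single pool, assumed to vary like the other gates, 0 of 9 members were called by edgeR against 0.696% of all genes, although 5 had an unadjusted p under 0.05; DESeq2 called 1 (Ccnd1, log2 0.89, adjusted p = 0.0406; 3.58% of all genes) and limma-trend 3 (17.6%). The pool lay outside the range of the 4 extravascular libraries for 6 members, as it did for 43.6% of all genes.

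Latent TCs were compared with the proliferative pool, the contrast that the dye defines, with the pool sharing mouse m12 with 1 latent library in a fit that took them as independent. Ccnd1 was at 904 to 1224 CPM in latent libraries and 1798 CPM in the pool (log2 −0.71 ± 0.27, adjusted p = 0.906, edgeR), and Ccnd2 at 91.4 to 121 and 72.8 CPM (0.54 ± 0.20, adjusted p = 0.906, edgeR). These were the 2 members with an unadjusted p under 0.05; none of 9 was called by edgeR, nor was any of all 19249 genes (0%; 977 with an unadjusted p under 0.05), while DESeq2 called 0 members (0.462% of all genes) and limma-trend 1 (Ccnd1, log2 −1.16, adjusted p = 0.0101; 0.926%). Without latent m12 the Ccnd1 difference was −0.78 (adjusted p = 0.964) and the Ccnd2 difference 0.59 (adjusted p = 0.958), both edgeR. The pool lay outside the latent range for 5 members and for 40.4% of all genes.

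Each TC was scored for S-phase and G2M genes, none of which is among the 10, and cells are named cycling below when the sum of both scores was above 0. The name stands for a score class only, since division was not measured and the 0 is set relative to control genes. The paper set a lower score limit for its bona fide latent cells, so the noncycling latent class here is wider than that set. The class made up 72.62 to 80.49% of intravascular, 70.67 to 80.49% of extravascular and 55.29 to 70.24% of latent TCs per animal, 77.64% of the proliferative pool and 55.83% of the cultured cells. The share was thus lower in cultured cells than in any day 1.5 library. The classes divide a range: 2 to 14 cells of each lung library and 32 of the proliferative pool lay within 0.1 of the limit. Cycling and noncycling cells of each animal were then summed apart and compared with the animal as a block.

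Within the latent gate, noncycling cells had less Ccnd1 and Cdk4 and more Ccnd2. Ccnd1 was at 1099, 1524, 1374 and 1386 CPM in the cycling cells of m9 to m12 and at 483, 671, 431 and 917 CPM in the noncycling cells of the same animals. Each cycling library was above each noncycling one, with a log2 difference of 1.29 ± 0.18 (± SE, fold 2.44, adjusted p = 0.00479, edgeR's quasi-likelihood test). Ccnd2 was at 83.5, 76.3, 79.0 and 63.1 CPM in cycling and 202, 149, 201 and 145 CPM in noncycling cells, with no overlap in the other direction (log2 −1.07 ± 0.15, fold 0.476, adjusted p = 0.00445, edgeR). Cdk4 was at 455, 619, 493 and 481 CPM in cycling and 318, 359.6, 279.8 and 341 CPM in noncycling cells (log2 0.78 ± 0.13, fold 1.72, adjusted p = 0.00976, edgeR), and it missed the threshold without m10 (adjusted p = 0.0648) or without m11 (adjusted p = 0.0667).

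These were 3 of 9 members tested, against 5.35% of all 13208 genes (3.41% higher and 1.93% lower in cycling cells), and the same 3 were the members without overlap, against 16% of all genes. DESeq2 called 4 members, Ccnd3 being the other one, against 14% of all genes. Cdk6 (log2 −0.02 ± 0.16, adjusted p = 0.963) and Cdkn1b (0.34 ± 0.26, adjusted p = 0.520) did not pass edgeR's test, nor did Ccnd3 (0.71 ± 0.25, adjusted p = 0.148). Noncycling latent cells had a median of 5636.5 to 6663 genes per cell against 6787 to 7211 in cycling ones, and the immune markers were at 709 CPM in the noncycling cells of m9 and 199 CPM in the cycling cells of m12; the part of either in the result was not tested. Ccnd1 was read in 89.5 to 100% of noncycling latent cells, and the Ccnd2 shares of the classes overlapped.

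**Figure D4:**
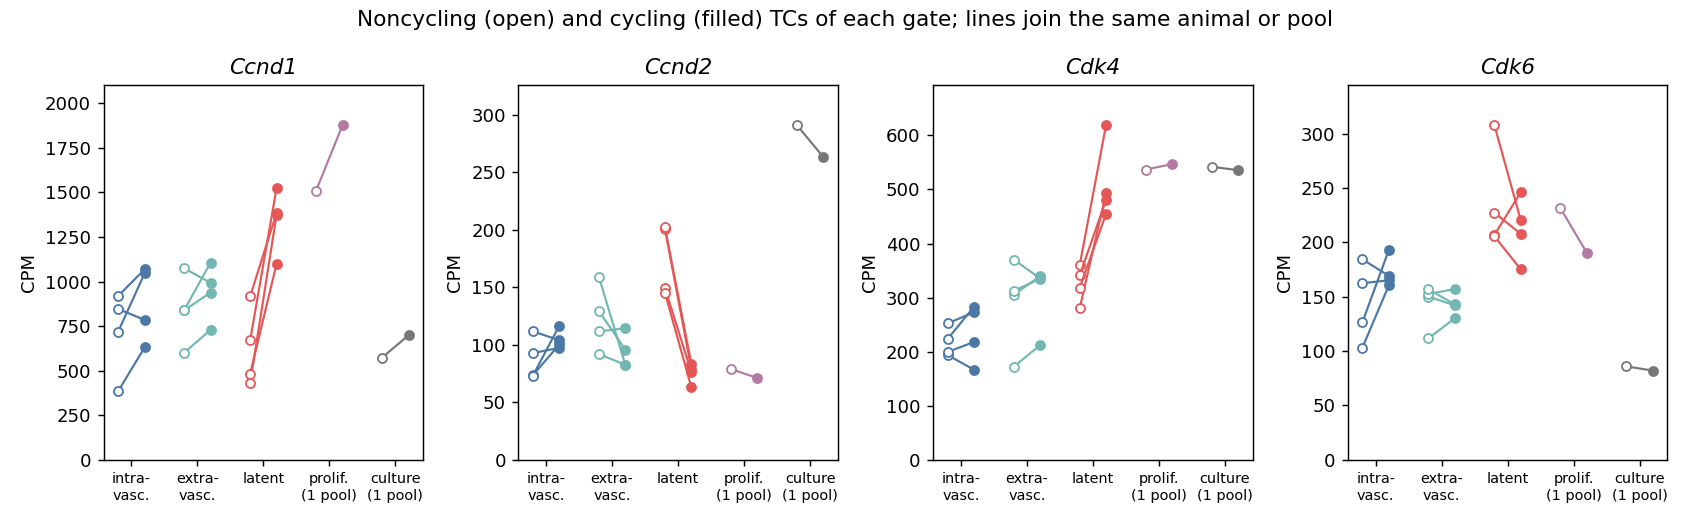
CPM of Ccnd1, Ccnd2, Cdk4 and Cdk6 in noncycling (open) and cycling (filled) TCs of each gate, with lines joining the classes of 1 animal or pool. In the latent gate all 4 lines rise for Ccnd1 and Cdk4 and fall for Ccnd2.

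In the other gates no member was called between the classes. Intravascular TCs had 0 of 9 called by edgeR and 0 by DESeq2, against 0.102% and 2.01% of all genes, with no member free of overlap (6.05% of all genes) and 1 unadjusted p under 0.05 (Cdkn2c, log2 −0.73 ± 0.26, adjusted p = 0.634, edgeR). Extravascular TCs had 0 of 9 by both tools, against 0.0159% and 2.02%, with 1 member free of overlap (Rb1, higher in cycling cells; 6.68% of all genes) and 1 unadjusted p under 0.05 (Ccnd2, −0.56 ± 0.24, adjusted p = 0.621, edgeR). Ccnd1 in extravascular cycling and noncycling cells was 942 ± 158 and 838 ± 193 CPM (SD, n = 4), and Cdk4 305 ± 62.4 and 290 ± 83.9 CPM. In the single pools the Ccnd1 levels of cycling and noncycling cells were 1878 and 1510.3 CPM (proliferative) and 698 and 574 CPM (culture), and the Ccnd2 levels 71.1 and 78.8 CPM and 263 and 291 CPM.

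The difference of the cycling effect between gates was itself tested, a comparison added after the values were seen. Latent minus extravascular, it was 1.28 ± 0.24 on the log2 scale for Ccnd1 (adjusted p = 0.0667), 0.85 ± 0.19 for Cdk4 (adjusted p = 0.127) and −0.52 ± 0.28 for Ccnd2 (adjusted p = 0.623), all edgeR. Latent minus intravascular, it was 1.07 ± 0.24 for Ccnd1 (adjusted p = 0.217), 0.81 ± 0.19 for Cdk4 (adjusted p = 0.229) and −1.22 ± 0.28 for Ccnd2 (adjusted p = 0.217), all edgeR. No member was called, against 0.0807% and 0.0538% of all genes, so the pattern of the latent gate is not shown to differ from that of day 1.5.

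In ECs, the days were compared to ask how the lung endothelium responded to the arriving TCs. None of the 10 members was called by edgeR on day 1.5 against day 0, on day 3.5 against day 1.5 or on day 3.5 against day 0, and neither was any other gene (0% of 17585 in each; 1422, 798 and 1541 had an unadjusted p under 0.05, of which 0, 1 and 1 were members). DESeq2 called 0 members in each (2.02%, 0.705% and 2.7% of all genes), and limma-trend called 0, 0 and 2 (Ccnd1 and Ccnd3; 2.71%, 0.0192% and 4.07%). Ccnd3 was the member with the smallest p, at a log2 fold change of 1.10 ± 0.40 on day 3.5 against day 0 (adjusted p = 0.485, edgeR) and 0.87 (adjusted p = 0.668, edgeR) against the 2 day 0 animals sorted with the day 3.5 ones.

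Shares of ECs with a read on day 3.5 did not overlap those of day 0 for Ccnd1 (38.0 to 46.01% against 20.3 to 36.1%), Ccnd3 (40.2 to 59.5% against 25.7 to 36.7%) and Cdk6 (32.4 to 39.8% against 20.3 to 28.4%), as for 18.3% of the 10917 genes found in 5% of cells or more. Thinned to 100000 reads per cell, the shares of Ccnd1 (32.5 to 39.8% against 16.5 to 31.3%) and Cdk6 (25.9 to 32.7% against 17.0 to 19.9%) stayed apart, and those of Ccnd3 overlapped (30.3 to 50.8% against 21.8 to 30.4%). Median genes per cell were 1951 to 2515 on day 0 and 2313 to 2973.5 on day 3.5, and their part in the shares was not tested. The shares separated day 1.5 from day 0 (10.5%) or day 3.5 from day 1.5 (7.26%) for 0 of the members in that set. The CPM of no member separated day 3.5 from day 0, against 7.87% of genes, nor day 1.5 from day 0, against 7.48%. Day 3.5 and day 1.5 were separate in CPM for 4 members, against 9.69%: Ccnd1 and Ccnd3 were higher and Cdk6 and Rbl2 lower on day 3.5, with edgeR adjusted p of 1 each. Mki67 in ECs was at 0 to 1.35 CPM on day 0, 0.0154 to 12.8 CPM on day 1.5 and 8.36 to 33.5 CPM on day 3.5, and in 7 of the 10 libraries a single cell gave over 50% of its reads.

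Of 33 other genes of G1 and S-phase entry (E cyclins with Cdk2, the remaining inhibitors, E2F and DREAM subunits), 31 were tested in TCs. Latent against extravascular TCs, 1 was higher and 2 lower, near the 8.57% called among all genes, with a list median of −0.10 on the log2 scale beside 0.03 for all genes. The higher one was Cdkn2d (p19), the INK4 paralog of Cdkn2c, at 137 to 170 CPM in latent and 36.3 to 52.3 CPM in extravascular libraries (log2 1.67 ± 0.21, adjusted p = 0.000253, edgeR). Cdc25a, the phosphatase that activates Cdk2, was at 5.82 to 9.28 and 14.1 to 22.8 CPM (−1.44 ± 0.22, adjusted p = 0.00137), and Mybl2, which joins the DREAM subunits to switch on G2M genes, at 10.6 to 16.9 and 17.8 to 30.6 CPM (−0.93 ± 0.26, adjusted p = 0.0409), both edgeR. Mybl2 missed the threshold without any 1 animal other than extravascular m7 (adjusted p = 0.0601 to 0.109) and without both immune-high animals (adjusted p = 0.232), with no low-count filter (0.0538), without cells over 5% mitochondrial reads (0.0591) and by limma-trend (log2 −0.46, adjusted p = 0.175).

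Extravascular against intravascular TCs, only Tfdp2, an E2F dimerization partner, was called (0.951% of all genes were), lower at 2.39 to 6.79 against 11.2 to 14.6 CPM (log2 −1.54 ± 0.32, adjusted p = 0.0443, edgeR). With the mouse as a block it was not called (adjusted p = 0.161), nor without any 1 library other than extravascular m5 (adjusted p = 0.0719 to 0.108, edgeR), with thinned cells (0.0755) or with no low-count filter (0.0506). Of these genes 0 were called in either comparison with the proliferative pool (7 and 4 with an unadjusted p under 0.05) and 0 of 33 in the EC comparisons (2, 3 and 5), nor were any of 28 between the classes of the intravascular and extravascular gates (4 and 3), all by edgeR.

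Between cycling and noncycling latent cells, 28 of the list were tested that were not part of the scores, and 4 were higher and 1 lower in cycling cells, beside 3.41% higher and 1.93% lower among all genes. The classes were cut by S-phase and G2M genes, so other genes that vary with these phases can differ through the cut itself. Cdkn2d was at 216 to 236 CPM in cycling and 22.8 to 51.0 CPM in noncycling cells (log2 2.95 ± 0.23, adjusted p = 0.000341, edgeR), and E2f7, a repressor induced in S phase, at 15.7 to 20.4 and 1.03 to 5.89 CPM (3.18 ± 0.53, adjusted p = 0.00933, edgeR). Ccne1, the cyclin that drives Cdk2 into S phase, was at 2.80 to 18.6 CPM in cycling cells and 0 to 2.38 CPM in noncycling ones (adjusted p = 0.0319, edgeR), and Mybl2 at 12.1 to 28.3 and 0.459 to 7.34 CPM (adjusted p = 0.0403, edgeR). Cdkn1a (p21), the inhibitor induced by p53, was the one that was lower in cycling cells, at 67.7 to 115 against 125 to 213 CPM (log2 −0.83 ± 0.19, adjusted p = 0.0384, edgeR). With single animals left out, Ccne1 and Cdkn1a missed the threshold each time (adjusted p = 0.0509 to 0.101 and 0.0515 to 0.162), Mybl2 without m10, m11 or m12 (0.0625 to 0.145) and E2f7 without m9 or m10 (0.0531 and 0.0503), whereas Cdkn2d kept its call. The call was also lost for Ccne1 without the block (adjusted p = 0.0539), for Cdkn1a with no low-count filter (0.0611) and for Mybl2 without cells within 0.1 of the score limit (0.0671), all edgeR.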

How the data were processed

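Single cells were sequenced with a modified Smart-seq2 protocol as short single reads, which per the submitters' processing notes the authors demultiplexed with bcl2fastq and quantified with Salmon 0.7.2 on GRCm38. The deposited read tables hold estimated counts per gene and cell, with no molecular identifiers. The authors also deposited log10 values for the cells they kept (log10 of 1 plus the counts divided by the cell's mean over a panel of housekeeping genes and multiplied by a constant), which set the cells used here: 1566 TCs and 2479 ECs. The authors' sort gates left out doublets, and no doublet caller was run here. The annotation release was not given in the sources used here, and gene positions are from GENCODE M21.

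The estimated counts of kept cells were summed per animal and gate, rounded, and tested with edgeR 4.0.16 (TMM, filterByExpr, quasi-likelihood F test, Benjamini-Hochberg over all genes, threshold 0.05) in R 4.3.3, in 1 fit over 13 lung TC libraries, 1 over 10 EC libraries and 1 per gate for cycling classes, with the animal as a block in the last. S-phase (43 genes) and G2M (54 genes) scores came from Seurat 5.3.0. Animals and sort days are those of the deposited annotation, which gives the proliferative cells 1 animal where the labels count 4 replicates, so that they entered as 1 pool. Same-numbered intravascular and extravascular libraries are of the same mouse (correlations of their deviations 0.0401, −6.64e-05, 0.0166 and −0.00745). Replicate libraries had an r of 0.947 to 0.974 in lung TCs and 0.810 to 0.890 in ECs, and none was a duplicate. DESeq2 1.42.0, limma 3.58.1 (trend, on the mean deposited log10 value per animal), other scaling, filters, thinning and leaving out each animal were the alternatives. Fitting steps were tested on simulated independent libraries with a single fixed spread, which does not show how they behave on these data. Levels per kilobase use the summed exon length of the gene.

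The 10 genes and all lists were chosen with earlier results of these data known. All 10 are named, with the 33 other genes named where called (at most 6 per comparison), genes from the 3 most alike to each (some are not reported here), and Mki67 and Top2a. Libraries held 31890283 reads or more, but amplified reads without molecular identifiers are not independent, so the precision of a level rests on its cells and animals.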

Additional observations from a re-analysis of the deposited data

Results flagged for a closer look

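In 37 groups of 4 libraries, 1 library stood far from the other 3 by Dixon's criterion in 4 cases, and chance gives about 1 in 20 groups. Ccnd1 in ECs of day 0 was at 86.0 CPM in m3, below the other 3 animals at up to 159 CPM. Cdkn2c was at 28.5 CPM in the same animal, where 1 cell gave 88.7% of its reads, against a lowest value of 3.03 CPM. Cdkn1c was at 37.5 CPM in day 0 mouse m1, where 1 cell gave 83.7% of the reads. Cdk4 was at 200.7 CPM in extravascular mouse m5, below the other 3 animals at up to 345 CPM.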

How the results depend on the processing

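The members called in the 10 comparisons were 0 for extravascular against intravascular TCs, 1 for latent against extravascular TCs, 3 between the classes of the latent gate and 0 elsewhere, and no alternative turned the direction of a called gene. limma-trend on the mean log10 values, which weights cells equally and carries the authors' housekeeping scaling, called 3 members for extravascular against intravascular, 5 for latent against extravascular (adding Cdk4, Cdkn1b, Cdkn2c and Rbl2), 3 for proliferative against extravascular (Ccnd1, Cdk4 and Cdkn2c), 1 for latent against proliferative and 2 for ECs of day 3.5 against day 0, with medians over all genes of −0.14, 0.27, 0.31, −0.06 and 0.18 (log2) in these comparisons. DESeq2 called 2 for latent against extravascular (adding Cdkn2c), 1 for proliferative against extravascular and 4 between latent classes (adding Ccnd3, adjusted p = 0.0466). Without both immune-high latent animals, 2 were called for latent against extravascular, an alternative chosen after seeing the data. Leaving out each animal in turn gave 2 to 3 members between latent classes and no other change. Of all genes, limma-trend called 15.1% for extravascular against intravascular, 40.3% for latent against extravascular and 4.07% for ECs of day 3.5 against day 0. DESeq2 called 14% for latent against extravascular and 14% between latent classes. The shares for the comparisons with the proliferative pool are given above. The causes were not tested. With the mouse as a replicate block, extravascular against intravascular kept 0 members, and without the block the class comparisons kept 0, 0 and 3; the block changed no member's call. RLE scaling, no low-count filter, thinning to 100000 reads, leaving out cells over 5% mitochondrial reads, leaving out cells within 0.1 of the score limit, and comparing ECs within a sort day (added after seeing the data) left each count of members as it was. Share separation between TCs and ECs held for 9 of the 10 members, Cdkn1c included, and 8 after thinning. Not run were the proliferative cells as 4 labelled replicates, since the read columns carry no such number, and a replicate block for ECs and for latent against extravascular TCs, which are different animals. Members with a few reads per cell, such as Rb1 and Rbl2 in TCs, have SEs of 0.55 to 0.59 on the log2 scale between gates of 4 animals, and a difference of 0.94 (Rbl2, latent against extravascular) was not called.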
